A study of Mus musculus with 27 samples.

Results

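Cyp2b9, Cyp2b10 and Cyp2b13, members of the Cyp2b subfamily of cytochromes P450, were followed in the liver of 27 mice on 4 diets. They were picked by name because earlier looks at these arrays had singled them out, Cyp2b9 and Cyp2b13 by their difference between CR and INT and Cyp2b10 by its difference between INT and MF. Each had a single probe set naming no other gene, so that keeping the probe set of highest mean made no choice. They were 3 of 18820 genes with a probe set of their own and 3 of 13603 genes bright enough to be tested, meaning that 5 or more arrays exceeded an intensity of 20.

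All mice were male C57BL/6J, housed individually, on their diet from 9 weeks of age and killed at 12 months. Of these, 7 ate the control diet AIN-93W (C), 7 the medium fat diet AIN-93W-MF (MF, 25% of energy from fat), 7 the intermittent diet (INT) and 6 a calorie-restricted diet, AIN-93W-CR (CR, 30% fewer calories). INT mice alternated by week between the MF diet without limit and 40% calorie restriction, and were killed in a week without restriction. C and MF mice ate without limit, whereas CR mice received a portion each day in the afternoon. Timing of meals and fewer calories therefore cannot be told apart in CR. Every mouse was fasted for 4 h, received the vehicle carboxymethyl cellulose (0.5%) by gavage, and was fasted for a further 6 h. All were sedated with isoflurane, nitrous oxide and oxygen before blood and liver were taken. RNA of a whole liver sample was measured on a separate array for each mouse, so fewer cells of a type and less RNA per cell cannot be told apart.

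Cyp2b enzymes are heme proteins of the endoplasmic reticulum that hydroxylate drugs, other foreign compounds and steroids, using electrons from P450 oxidoreductase. Cyp2b10 is the classical target of the nuclear receptor CAR (Nr1i3) and rises with phenobarbital-like inducers, with overlapping input from PXR (Nr1i2). Cyp2b9 and Cyp2b13 are known from adult mouse liver as female-biased genes, which the pulsed growth hormone pattern of males holds down through STAT5b and HNF4α.

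The members lie in a row on the plus strand of chromosome 7 (GRCm38.p6), Cyp2b10 at chr7:25897658-25926624, Cyp2b13 at chr7:26061388-26096197 and Cyp2b9 at chr7:26173350-26210661. Cyp2b10 and Cyp2b13 are 134.8 kb apart and Cyp2b13 and Cyp2b9 77.2 kb apart, within 313.0 kb in all. The RefSeq table of this build has 5 protein-coding Cyp2b genes and 3 Cyp2b pseudogenes. The promoters are shown because the members differed in their levels across diets while lying side by side. Each window runs from 250 bases before to 50 bases after the transcript start used for the RefSeq windows, which for Cyp2b13 and Cyp2b9 lies inside the outer bounds of the gene (plus strand, at chr7:25897408-25897707 for Cyp2b10, chr7:26061245-26061544 for Cyp2b13 and chr7:26173159-26173458 for Cyp2b9), and capitals mark AGGTCA, the core hexamer bound by many nuclear receptors.
Cyp2b10: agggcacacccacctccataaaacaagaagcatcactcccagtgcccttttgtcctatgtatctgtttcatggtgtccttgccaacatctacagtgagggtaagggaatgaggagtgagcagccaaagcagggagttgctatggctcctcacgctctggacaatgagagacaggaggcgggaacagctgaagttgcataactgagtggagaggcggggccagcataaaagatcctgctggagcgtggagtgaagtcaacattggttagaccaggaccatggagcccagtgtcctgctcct
Cyp2b13: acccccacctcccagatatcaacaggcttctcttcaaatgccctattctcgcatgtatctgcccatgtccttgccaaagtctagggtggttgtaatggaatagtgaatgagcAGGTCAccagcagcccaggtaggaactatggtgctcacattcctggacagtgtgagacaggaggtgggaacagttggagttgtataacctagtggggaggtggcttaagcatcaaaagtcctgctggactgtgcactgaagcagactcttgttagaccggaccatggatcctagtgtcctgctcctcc
Cyp2b9: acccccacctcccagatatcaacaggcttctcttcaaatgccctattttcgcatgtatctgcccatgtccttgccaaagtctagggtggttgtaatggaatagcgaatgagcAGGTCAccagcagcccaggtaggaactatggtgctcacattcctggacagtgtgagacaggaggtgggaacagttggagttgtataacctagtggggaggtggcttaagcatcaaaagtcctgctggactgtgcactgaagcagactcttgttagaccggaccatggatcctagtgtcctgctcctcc

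Cyp2b13 and Cyp2b9 had nearly the same promoter window, with 298 of 300 bases identical. Counted from the first base of the window, with the Cyp2b13 base given first, they differed by C48T and T104C. Cyp2b10 matched either of them at 229 of 286 aligned bases (80.1%). AGGTCA was searched on both strands, as were the motifs below. It was found at base -138 from the start of both Cyp2b13 and Cyp2b9 and not in the Cyp2b10 window. The windows of the other Cyp2b genes, Cyp2b23 (base -164) and Cyp2b19 (base -121), held it as well. Of 32544 promoter windows of this length 16.2% held it. No member's window held TTCNNNGAA, the motif of STAT factors (8.33% of windows), TTGCGCAA, that of C/EBP factors (0.184%), or TGACCTTTG, a form bound by HNF4α and related receptors (0.482%). These matches describe letters in a short window and say nothing about binding.

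All 3 genes had the same order of diet means, CR above MF above C above INT. Levels are given as log2 of the probe set's intensity, and the minimum of 20 corresponds to 4.32 on this scale. The MF, C and INT means of Cyp2b13 lay under it, so their order is one of values near background. Part of the order chose the genes, CR over INT for Cyp2b9 and Cyp2b13 and MF over INT for Cyp2b10. Arrays had medians between 5.21 and 5.27, so their overall brightness was alike. Levels of different genes come from different probe sets and are not compared with each other.

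Cyp2b13 was on in every CR mouse and near or below the minimum in almost all others. In CR mice its log2 intensity ran from 8.90 to 10.23 with a median of 9.96. In C mice it ran from 2.61 to 4.66 with a median of 3.07, in MF mice from 2.79 to 7.00 with a median of 3.70, and in INT mice from 2.50 to 2.97 with a median of 2.64. Above the minimum were 6 of 6 CR mice, 3 of 7 MF mice, 1 of 7 C mice and 0 of 7 INT mice. The CR range overlapped no other, and its lowest mouse lay 1.90 above the highest MF mouse, 4.25 above the highest C mouse and 5.93 above the highest INT mouse.

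The diet means of Cyp2b13 were 9.80 ± 0.49 (SD, n = 6) in CR, 4.13 ± 1.48 (n = 7) in MF, 3.20 ± 0.69 (n = 7) in C and 2.70 ± 0.17 (n = 7) in INT. CR exceeded C by 6.61 (SE 0.45) on the log2 scale, MF by 5.67 (SE 0.45) and INT by 7.10 (SE 0.45). Here and below, SEs and intervals rest on a spread of the gene shared by all diets, so unequal SDs do not show in them. The means of the other diets include values under the minimum, so these sizes are not exact, and with values under 20 set to 20 the differences were 5.43, 5.00 and 5.48. As no INT mouse was above the minimum, the fold is a bound, and on those values CR was at least 44.6-fold higher than INT, and 43.2-fold and 31.9-fold higher than C and MF. These differences chose the gene or share the CR mice with the one that did, and are given without a test.

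Among the other diets Cyp2b13 was spread unevenly over mice. MF replicate 4 stood alone at 7.00, between the remaining MF mice, at 2.79 to 4.72, and the CR mice. C replicate 5, at 4.66, was the only C mouse above the minimum. INT differed from MF by -1.43 (SE 0.43) and from C by -0.49 (SE 0.43), given without a test as these comparisons use the INT mice that helped to choose the gene. Cyp2b13 was among the tested genes only through its 6 CR arrays, as 10 of the 14 MF and C mice were under the minimum. MF exceeded C by 0.94 (SE 0.43), which did not pass the test, with an adjusted p of 1.00 (limma, Benjamini-Hochberg over 13603 genes). Without MF replicate 4 the difference between MF and C was 0.46 and that between INT and MF -0.96, and without C replicate 5 that between INT and C was -0.25. Of the 14 INT and C mice 13 were under the minimum, so that value lies almost wholly below it.

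Cyp2b9 was high and almost equal in the CR mice and differed widely among mice of the other diets. Its log2 intensity in CR ran from 12.33 to 12.75 with a median of 12.60. In MF it ran from 8.62 to 12.11 with a median of 11.84, in C from 4.96 to 12.00 with a median of 8.74, and in INT from 4.69 to 9.59 with a median of 9.05. CR again overlapped no other diet, but by as little as 0.22 above the highest MF mouse and 0.34 above the highest C mouse, against 2.74 above the highest INT mouse. C and MF thus each held mice close to the CR level beside mice far below it.

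The means of Cyp2b9 were 12.59 ± 0.14 (SD, n = 6) in CR, 11.08 ± 1.29 (n = 7) in MF, 8.87 ± 2.36 (n = 7) in C and 7.98 ± 2.08 (n = 7) in INT. Its SD was the largest of 13603 genes in C and again in INT, ranked 20 in MF, and ranked 7500 in CR, in the middle of all genes. CR exceeded C by 3.71, MF by 1.51 and INT by 4.61 (SE 0.89 each), which is 13.1-fold, 2.84-fold and 24.4-fold. As for Cyp2b13, these values have no test.

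Cyp2b9 had a higher mean in MF and a lower one in INT than in C, within a wide spread. MF exceeded C by 2.21 (SE 0.85, 95% interval 0.45 to 3.96), with an adjusted p of 1.00 in limma. The shared spread behind this interval includes the tight CR mice (SD 0.14). It therefore understates the spread of C (SD 2.36) and MF (SD 1.29), and the interval is not read as excluding 0. INT differed from MF by -3.10 (SE 0.85) and from C by -0.89 (SE 0.85), without a test. The latter was -0.35 without INT replicate 2 and -1.55 without C replicate 6. In size the differences between MF and C and between INT and MF were the largest of 13603 genes in their comparison, beside the largest SD in C and INT. limma called 0 of 13603 genes (0%) in each of these 3 comparisons. An unadjusted limma p under 0.05 was found for 1479 genes (10.9%, INT against MF), 922 (6.78%, INT against C) and 464 (3.41%, MF against C). When nothing differs, a share of about 0.05 falls under that threshold.

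Cyp2b10 showed the smallest span of the members and a graded order of diets. CR mice had log2 intensities from 6.91 to 8.70 with a median of 8.28. MF mice ran from 5.32 to 8.47 with a median of 6.63, C mice from 4.71 to 8.29 with a median of 5.59, and INT mice from 3.63 to 5.52 with a median of 4.58. CR overlapped both MF and C, whereas all CR mice were above all INT mice, by at least 1.39. INT mice were close to the minimum, and the only value of Cyp2b10 under it was the lowest of them.

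The Cyp2b10 means were 8.12 ± 0.67 (SD, n = 6) in CR, 6.88 ± 1.03 (n = 7) in MF, 5.95 ± 1.23 (n = 7) in C and 4.64 ± 0.60 (n = 7) in INT. Cyp2b10 rose in CR over C by 2.18 (SE 0.48, 95% interval 1.20 to 3.15), a 4.52-fold difference with an adjusted p of 0.00177 in limma. This was the only difference between CR and another diet that was tested for a member, 1 of 1 called, where 17.5% of all 13603 genes passed the same test. The arrays were also divided by replicate number into sets that differed in the mean spread of their values. Within replicates 1 to 4 the difference was 2.72 (adjusted p = 0.00022, limma). Within replicates 5 to 7 it was 1.28 (adjusted p = 0.567 with 2 CR and 3 C mice). CR exceeded MF by 1.25 and INT by 3.49 (SE 0.48 each), given without a test.

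INT had the lowest Cyp2b10 of the diets. It differed from MF by -2.24 (SE 0.46), the value that chose this gene, and from C by -1.31 (SE 0.46), while MF exceeded C by 0.93 (SE 0.46), all given without a test. The INT and MF ranges overlapped narrowly, as the lowest MF mouse, replicate 6, was below the highest INT mouse, replicate 1. In size the difference between INT and MF ranked 4 of 13603 genes.

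In 2 of the 3 members every CR mouse was above every C mouse, and likewise above every MF mouse, as in 3.23% and 2.90% of all genes. For all 3 members every CR mouse was above every INT mouse, with 2.77% of all genes. The contrast with INT chose Cyp2b9 and Cyp2b13, the others share its CR mice, and nothing is read from these counts. In 0 of the 3 was every INT mouse below every MF mouse, with 0.0882% of all genes. The comparisons with CR share the same 6 mice.

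**Figure D1:**
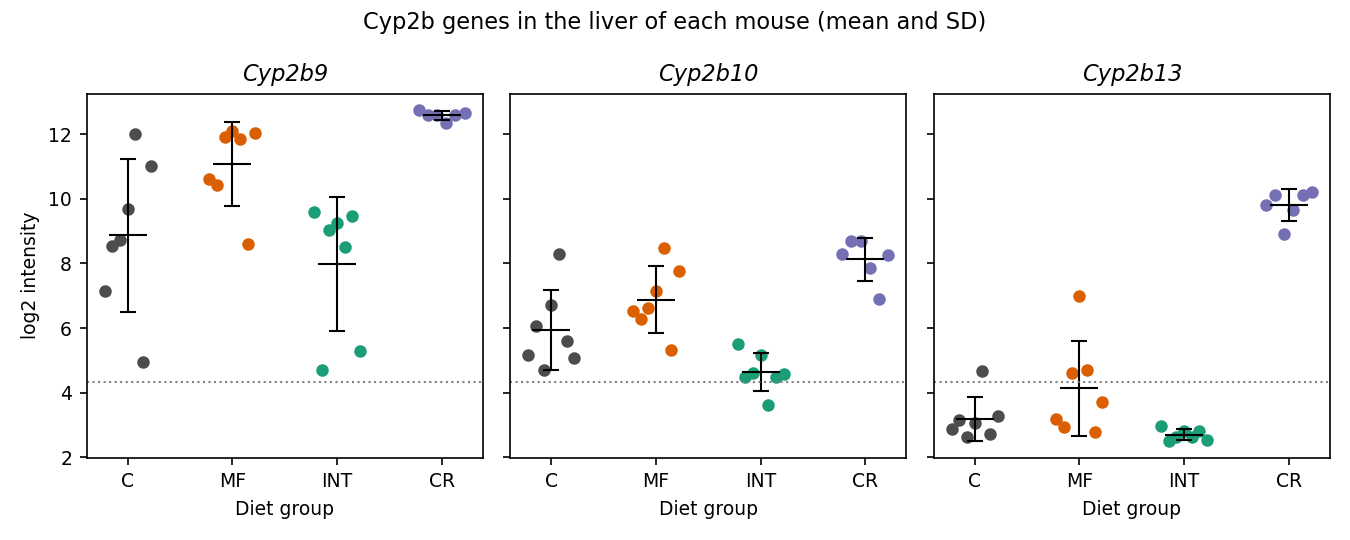
Log2 intensity of Cyp2b9, Cyp2b10 and Cyp2b13 in each mouse by diet group (C, MF and INT 7 mice each, CR 6), a point per mouse, with the mean (long bar) and SD (whiskers); the dotted line is the minimum at 4.32. Cyp2b13 is at 8.90 or above in CR and at or below 7.00 elsewhere, while Cyp2b9 is tight only in CR.

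**Figure D2:**
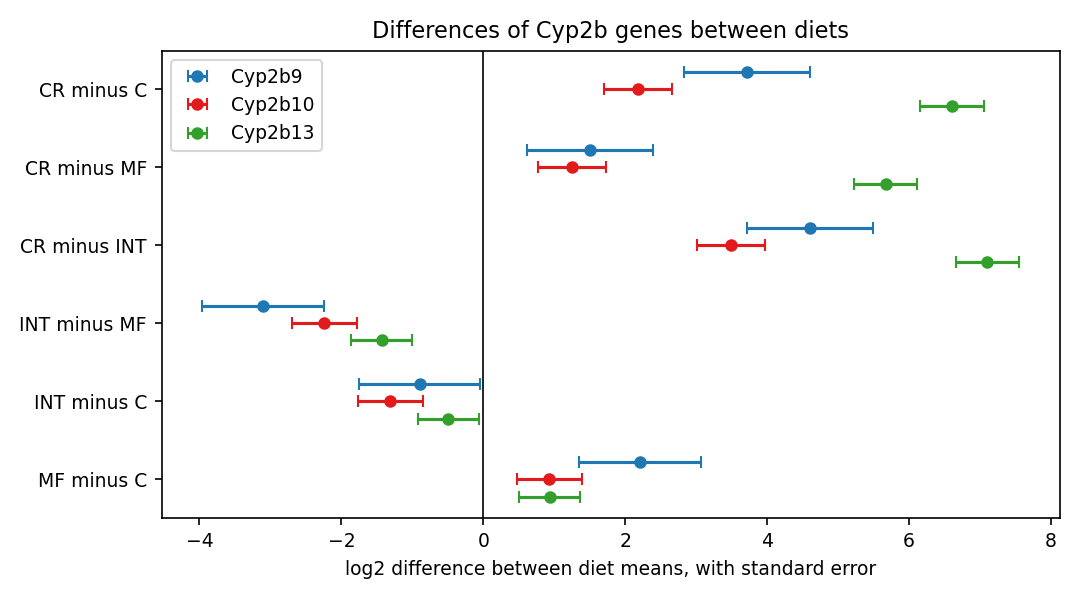
Differences between diet means (log2 intensity, horizontal axis) of the 3 genes in the 6 comparisons, with standard errors as bars. Every CR comparison lies above 0; those of Cyp2b13 are drawn from values as deposited, and with values under 20 set to 20 they were 5.43 (C), 5.00 (MF) and 5.48 (INT).

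Outside CR the members tended to be high in the same mice within a diet. C replicate 5 was the highest C mouse and INT replicate 1 the highest INT mouse for all 3 genes, and MF replicate 6 was the lowest MF mouse for all 3. For Cyp2b13 all INT mice and MF replicate 6 were under the minimum, where order means little. The lowest mouse of C and of INT was not the same for all 3 genes. In CR each gene had its own highest and lowest mouse. MF replicate 4 was the highest for Cyp2b9 and Cyp2b13, and MF replicate 5 for Cyp2b10. After each diet's mean was taken off, Pearson's r over the 27 mice was 0.47 between Cyp2b9 and Cyp2b10, 0.49 between Cyp2b9 and Cyp2b13 and 0.46 between Cyp2b10 and Cyp2b13. Without MF replicate 4 these were 0.47, 0.58 and 0.61. The values of a mouse come from the same array, and these r are a description. Most Cyp2b13 values outside CR were under the minimum, which limits the r that involve it.

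The genes also parted within diets. C replicate 7 had Cyp2b9 at 11.02, the second highest of its diet, with Cyp2b10 at only 5.08. CR replicate 5 had the lowest Cyp2b10 of the CR mice, 6.91, beside Cyp2b13 at 10.12 and Cyp2b9 at 12.58. Outside CR, Cyp2b13 was above the minimum only in mice with Cyp2b9 at 11.84 or more, namely C replicate 5 and MF replicates 3, 4 and 5, while MF replicate 7 had Cyp2b9 at 12.05 and Cyp2b13 at 3.70. Close relatives can share array signal, which was not tested here.

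**Figure D3:**
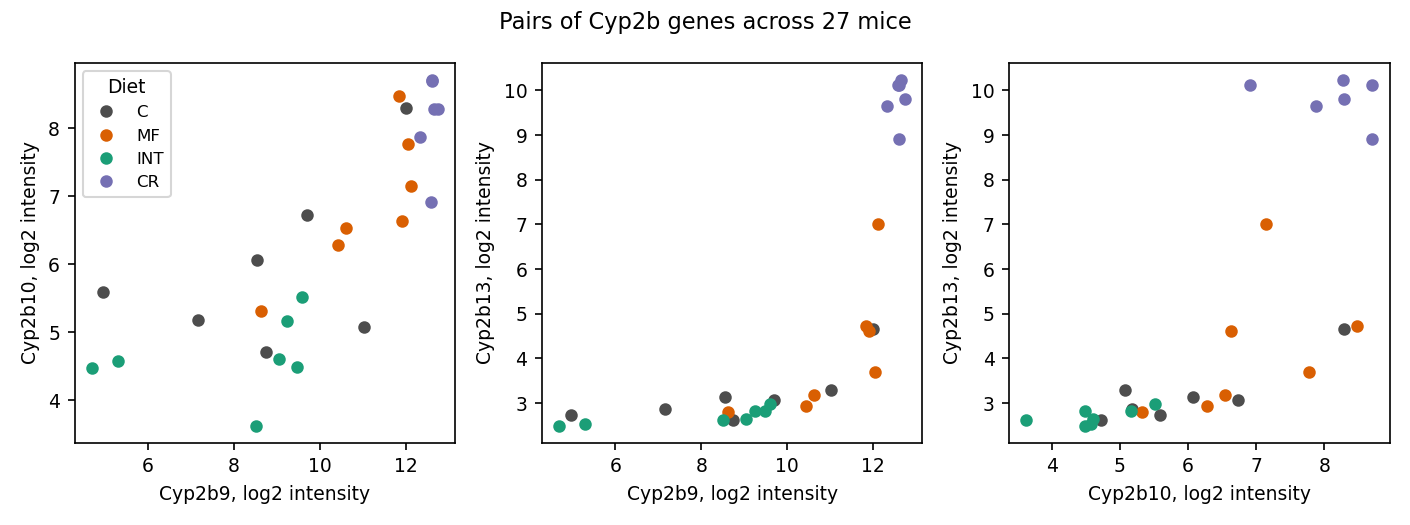
Log2 intensity of each pair of the 3 genes, a point per mouse, coloured by diet. Cyp2b13 stays under 5 on this scale in all mice outside CR but MF replicate 4, at 7.00, over a Cyp2b9 range from 4.69 to 12.11.

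The other Cyp2b genes were near or below the minimum. Cyp2b23, 454.6 kb beyond Cyp2b9, was above the minimum on 19 of 27 arrays and its diet means differed by at most 0.13, with no call in any comparison (adjusted p = 0.329 between CR and C, limma). Cyp2b19, best known from skin, was below the minimum on all 27 arrays and was not tested.

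Of the other Cyp2 genes around the Cyp2b block, 5 of 8 could be tested, and 2 rose and 1 fell in CR against C. That is 60% of those tested, where 17.5% of all genes were called. Cyp2a22 moved most, by 1.95 (SE 0.53, adjusted p = 0.00986), and by 2.51 against INT, whereas its 1.22 against MF did not pass (adjusted p = 0.105). Cyp2a5, the coumarin hydroxylase, rose by 0.45, 0.40 and 0.60 against C, MF and INT. Cyp2f2, an enzyme that activates naphthalene, fell by 0.65, 0.69 and 0.67. Cyp2a12 and Cyp2s1 did not pass in any of the 3, Cyp2g1 and Cyp2t4 were under the minimum, and Cyp2a4, a close relative of Cyp2a5, had no probe set of its own. The list's median difference was 0.04 between CR and C against 0.00 for all genes.

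Of 11 genes listed for CAR, PXR and their partners, 9 could be tested, PXR itself among them. Nr1i3, encoding CAR, shares its probe set with a neighbouring gene and was not analysed here. Of the 9 genes tested, 1 rose and 2 fell in CR against C and against INT, and 1 rose and 1 fell against MF. That is 33.3%, 33.3% and 22.2% of the list against C, INT and MF beside 17.5%, 15.0% and 19.8% of all genes, near the background against MF. Ppargc1a, a coactivator of fasting metabolism, rose by 1.63, 2.04 and 1.78 against C, MF and INT. Egfr, through which phenobarbital-like inducers act on CAR, fell by 0.59 against C and by 0.75 against INT, and its -0.39 against MF did not pass (adjusted p = 0.0813). Nr1h4, the bile acid receptor FXR, fell by 0.30, 0.31 and 0.36. Nr1i2, encoding PXR, differed by -0.16 from C without passing (adjusted p = 0.327).

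Among 33 CAR and PXR target genes, 10 rose and 5 fell in CR against C, 8 rose and 5 fell against MF, and 12 rose and 5 fell against INT. That is 45.5%, 39.4% and 51.5% of the list, where 17.5%, 19.8% and 15.0% of all genes were called. The list's median difference was small, 0.14, 0.11 and 0.10, while the medians of all genes were within 0.01 of 0. Slco1a4, an organic anion uptake transporter, rose by 1.56 (SE 0.20) against C and Gsta4, a glutathione transferase for lipid aldehydes, by 1.05 (SE 0.14). Sult5a1, a sulfotransferase, fell by 1.30 (SE 0.17), Cyp2c54 by 0.92 (SE 0.32) and the retinal dehydrogenase Aldh1a1 by 0.78 (SE 0.09). Beside the 4.52-fold rise of Cyp2b10, other genes listed under the same receptors both rose and fell. The part of CAR or PXR in these differences was not tested. Cyp2a5 stands also in the list of Cyp2 neighbours and Alas1 in that of electron and heme supply. Between INT and MF, where Cyp2b10 was chosen, no listed gene passed the test; the largest differences were 0.68 for Cyp2c54 and 0.45 for Sult5a1 among the targets, and 0.36 for Egfr and 0.26 for Ppargc1a among the partners.

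Of 12 genes that supply P450 enzymes with electrons and heme, 1 rose and 3 fell in CR against C and against MF, and 2 fell against INT. That is 33.3%, 33.3% and 16.7% of the list beside 17.5%, 19.8% and 15.0% of all genes, near the background against INT. Cpox, a late enzyme of heme synthesis, fell by 0.77, 0.80 and 0.77 against C, MF and INT. Alas1, its rate-limiting enzyme in liver, fell by 0.53, 0.46 and 0.33. Uros fell by 0.25 and Fech, which inserts iron, rose by 0.17 against C. The count against C was 2 without C replicate 5 and without CR replicate 6, that against MF 2 without CR replicate 6, and that against INT 1 without CR replicate 2.

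Genes with a known sex bias in mouse liver moved widely in CR, the female-biased ones upward together with Cyp2b9 and Cyp2b13. These lists were written with earlier results of the same arrays known and are no independent evidence. Of 36 other female-biased genes listed, 21 could be tested. Of these 13 rose in CR against C, 11 against MF and 11 against INT, and none fell. That is 61.9%, 52.4% and 52.4% of those tested, where 17.5%, 19.8% and 15.0% of all genes were called. The median difference was 0.79, 0.73 and 1.01. Slc22a26 and Slc22a27, organic anion transporters, rose by 4.55 (SE 0.34) and 3.88 (SE 0.41) against C. Ppp1r3g, a glycogen-targeting subunit of protein phosphatase, rose by 2.82 (SE 0.25), Nipal1, a magnesium transporter, by 2.35 (SE 0.32) and the peroxisomal hydroxy acid oxidase Hao2 by 1.93 (SE 0.28).

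Of 30 male-biased genes listed, 27 could be tested. Of these 21 fell in CR against C, 22 against MF and 25 against INT, and 1 rose against MF. That is 77.8%, 85.2% and 92.6% of those tested, beside 17.5%, 19.8% and 15.0% of all genes. The median difference was -1.09, -1.20 and -1.42. Cyp4a12a and Cyp4a12b, arachidonic acid hydroxylases whose near-identical sequences can share signal, fell by 6.77 (SE 0.29) and 6.63 (SE 0.28) against C. The steroid dehydrogenase Hsd3b5 fell by 5.82 (SE 0.93), the pseudogene Serpina4-ps1 by 5.17 (SE 0.65) and the transporter Slco1a1 by 4.95 (SE 0.54). MF replicate 4, the mouse of highest Cyp2b13 outside CR, was apart here too. It had a mean over the male-biased list of 8.77, where the other MF mice ran from 9.39 to 10.42 and CR mice from 7.57 to 8.25. MF replicate 3, also above the Cyp2b13 minimum, had 9.39, the next lowest of MF. C replicate 5 had 9.58, the lowest of C but close to C replicate 7 at 9.62. MF replicate 5 had 9.89, in the middle of its diet, and INT mice ran from 9.99 to 10.45. On the female-biased list MF replicate 4 was not apart, with 7.81 beside 7.79 in MF replicate 7.

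Of 25 genes of growth hormone signalling and its transcription factors, 3 rose and 4 fell in CR against C, with a median of -0.08, and 2 rose and 3 fell against MF, and 2 rose and 6 fell against INT. That is 28%, 20% and 32% of the list, where 17.5%, 19.8% and 15.0% of all genes were called, so the count against MF was at the background. Cux2, Trim24 and Tox stand also in the female-biased list and Bcl6 in the male-biased one. Cux2, a transcription factor made in female liver, rose by 1.85 (SE 0.09) against C, 1.97 against MF and 1.99 against INT. Tox rose by 0.69, Stat5a fell by 0.45, the phosphatase gene Ptpn1 by 0.38 and Hlf by 0.32 against C. Stat5b differed by 0.13 without passing (adjusted p = 0.168, limma), and Ghr, the growth hormone receptor, fell by 0.24. Transcripts of the Y chromosome (Eif2s3y, Kdm5d, Uty; Ddx3y had no probe set of its own) were above the minimum on all 27 arrays and Xist, the X-inactivation transcript, was under it on all 27, as the label male requires.

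**Figure D4:**
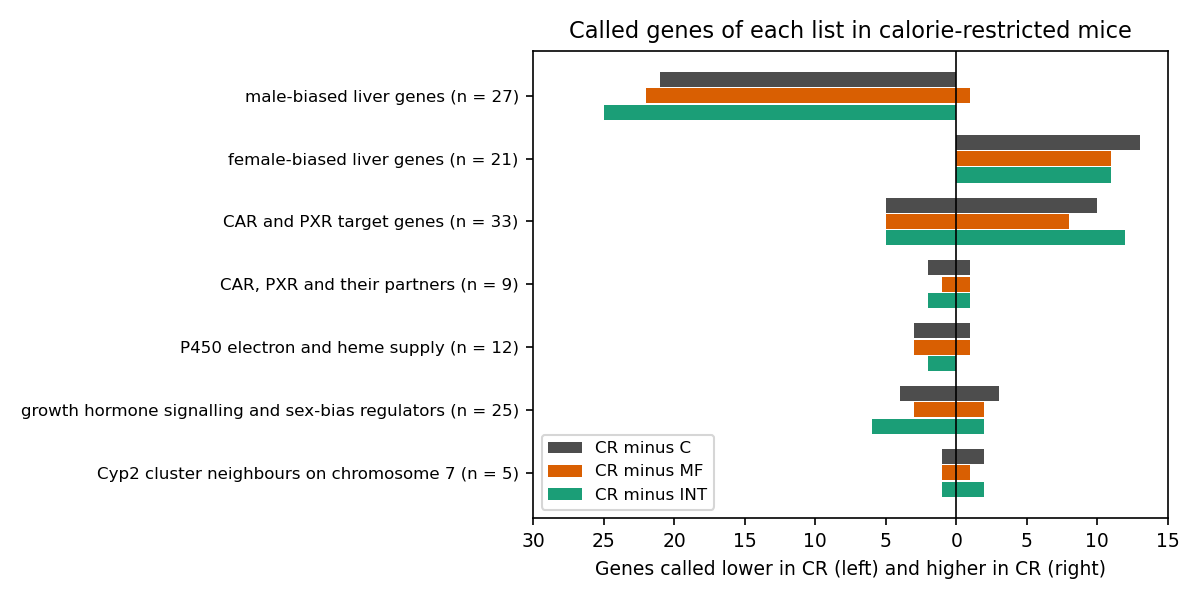
Number of genes called in limma (adjusted p up to 0.05) in each list as lower in CR (left) or higher in CR (right) against C, MF and INT, with the number of genes tested in parentheses. The male-biased list lies to the left with 21 to 25 called lower, and the female-biased list to the right with 11 to 13 called higher. Of all genes 17.5%, 19.8% and 15.0% were called against C, MF and INT.

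Likeness to each member was described by Pearson's r of log2 intensity over the 27 mice, which lie in 4 diets and so differ in level for many genes at once. Cyp2b9 was followed most closely by Vldlr, a lipoprotein receptor, with an r of 0.89, and by Cyp2a22 (0.83), Impg2 (0.82), Hao2 (0.81) and Tm4sf4 (0.81). Vldlr kept an r of 0.84 over the 21 mice outside CR and 0.83 over deviations from diet means. The opposite course was taken by Egfr (-0.86), the oxysterol hydroxylase Cyp7b1 (-0.84) and Cd4 (-0.83). Within diets, Igsf11 (0.81), the bicarbonate transporter Slc4a4 (0.77), Sytl4 (0.76) and Mroh1 (0.75) came after Vldlr.

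For Cyp2b10 the nearest genes were Hao2 (0.80), the phosphatase Dusp14 (0.80), the flavin monooxygenase Fmo1 (0.78), Tm4sf4 (0.78) and Ccng2 (0.78). Its largest r in size was negative, -0.87 for the secreted factor Prok1, followed by 3110082I17Rik (-0.83) and the laminin subunit Lama3 (-0.83). Within diets the nearest were Fmo5 (0.76), a further flavin monooxygenase, the lipid droplet protein Plin5 (0.75), Osbpl11 (0.72), the cell cycle inhibitor Cdkn1a (0.72) and Id1 (0.71). No gene of the first 5 stood among the second.

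Cyp2b13 fell into CR mice and others, so its r over all mice mainly restates that split. Cux2 (0.94), Hao2 (0.93), Slc22a26 (0.92), Nt5e (0.92) and Slc22a27 (0.92) were highest and Cyp2d9 (-0.96), Mup21 (-0.96) and Susd4 (-0.96), all male-biased, lowest. Over the 21 mice outside CR the r fell to 0.22 for Cux2 and 0.38 for Slc22a26 but was 0.88 for Hao2, -0.82 for Cyp2d9 and -0.91 for Susd4. There 17 of the 21 Cyp2b13 values were under the minimum, and Hao2 was close to it as well, with means of 4.13 in C, 4.69 in MF and 3.85 in INT. The negative r also leaned on MF replicate 4. Over deviations from diet means, leaving it out took Cyp2d9 from -0.77 to -0.60, Mup21 from -0.77 to -0.54 and Susd4 from -0.69 to -0.59. Hao2 went from 0.83 to 0.87. Within diets Nrg1 (0.91), Mmp13 (0.89), S100a11 (0.89), Fkbp1a (0.88) and Cd99 (0.87) were nearest, and only 1 of these 5, Nrg1, remained without MF replicate 4. Hao2 was among the 5 nearest genes of all 3 members.

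**Figure D5:**
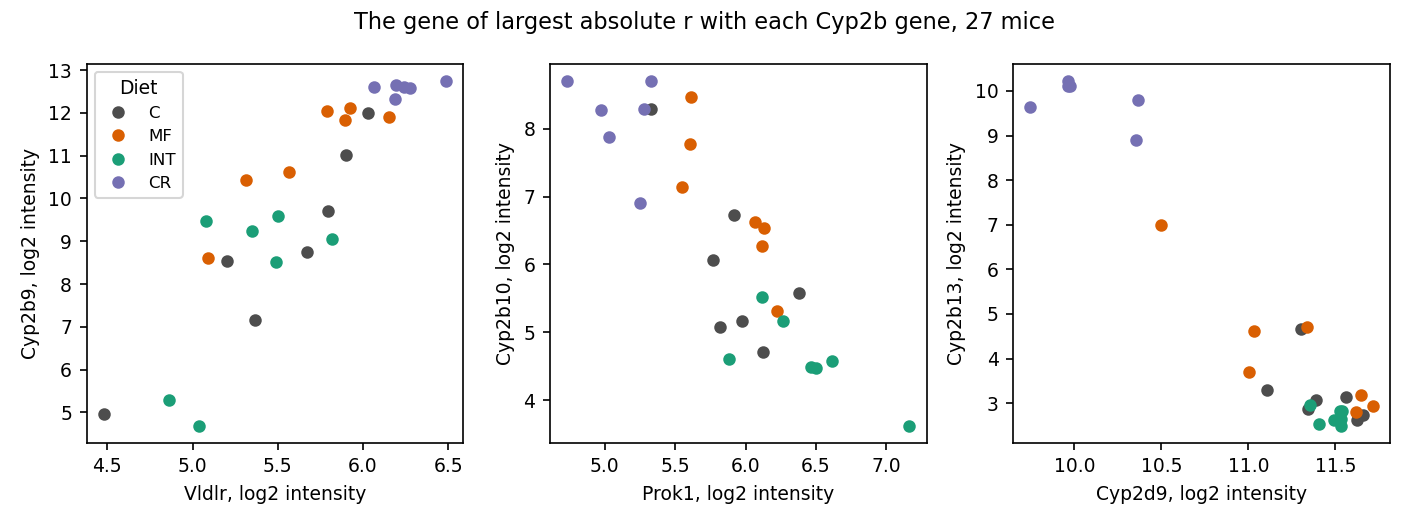
Log2 intensity of each Cyp2b gene against the gene of largest absolute r with it, a point per mouse, coloured by diet: Vldlr for Cyp2b9 (r = 0.89), Prok1 for Cyp2b10 (-0.87) and Cyp2d9 for Cyp2b13 (-0.96). For Cyp2b9 and Cyp2b10 the diets grade into each other, and for Cyp2b13 the CR mice form a separate group with MF replicate 4 between.

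In the sets of arrays named for Cyp2b10, those of replicates 1 to 4 (16 arrays) had an interquartile range of 3.63 ± 0.03 (SD) and those of replicates 5 to 7 (11 arrays) of 3.72 ± 0.03. Both sets held all diets, and with the set as a block the difference of Cyp2b10 between CR and C was 2.17 (adjusted p = 0.00230). Cyp2b13 exceeded C by 6.69 and 6.62 within the sets and Cyp2b9 by 4.04 and 3.29. All 12 hepatocyte markers were past the minimum, of which 2 rose and 1 fell in CR against C (25% beside 17.5% of all genes). Of 8 macrophage markers 2 rose in CR against C and MF, 25% beside 17.5% and 19.8% of all genes. Against INT 6 rose, 75% beside 15.0%. Their mean level was 8.59 to 9.13 per CR mouse, 8.02 to 8.50 per INT mouse, 8.32 to 8.90 per C mouse and 8.10 to 8.80 per MF mouse. The part of these markers in the member differences was not tested. In CR against C, 2 of 4 cholangiocyte markers (50%) and 1 of 10 endothelial and stellate markers (10%) rose. Of 4 adipocyte markers 1 fell (25%), with the defining Adipoq and Lep under the minimum on all 27 arrays, and 0 of 2 pancreas markers passed (0%). The share of all genes called in CR against C was 17.5%.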

How the data were processed

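Liver RNA of 27 mice (100 ng each, RNA integrity number above 8) was hybridised to Affymetrix Mouse Gene 1.1 ST arrays, a single array per mouse. The authors deposited log2 intensities of 35556 probe sets, background-corrected, quantile-normalized and summarised by RMA; the version is not given in the sources used here. The methods describe Entrez-based probe sets, whereas the deposited table holds those of the array maker. RMA brings all arrays to a common distribution, so values are relative to the whole array, and differences near the background or near saturation are compressed. Arrays have no read depth; their number limits the precision. All array columns belonged to named samples.

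Groups were taken from the sample labels. Probe sets naming 1 gene (21218) were used, those naming several (1881) or none (12457) were left out. Of 1386 genes with several probe sets that of highest mean was kept, giving 18820 genes (18790 matched to the RefSeq table of GRCm38.p6). The 13603 genes that exceeded an intensity of 20 on 5 or more arrays entered the fit (lmFit, contrasts.fit and eBayes of limma 3.58.1, run in R 4.3.3) over all 27 arrays, 4 diets and 6 contrasts, without covariates. Each gene had a single estimate of spread shared by the 4 diets. P-values were adjusted by Benjamini-Hochberg and called up to 0.05. A fold is 2 to the power of a log2 difference. The scripts were tested on simulated data.

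The members and gene lists were chosen with earlier results of these data known. Member differences were therefore tested only in contrasts that share no mice with the one a gene was chosen by (Cyp2b10 in CR against C; Cyp2b9 and Cyp2b13 in MF against C). Other genes named were the 5 of highest and 3 of lowest r with each member, the 5 of highest r over deviations from diet means, all genes of lists of up to 8, and otherwise the 5 called genes of largest difference between CR and C; Nr1i2, Stat5b and Ghr were added for their known role after their values were seen. Cell-type marker lists are given by counts. Mice are separate animals of each diet. The alternatives were no or a stricter minimum, cyclic loess, median centring, robust and trended variances, array weights, fitting only the 2 diets compared, a block for replicate number or array set, each array set alone, the mean of probe sets, and each mouse left out. Chosen after seeing the data were a floor at 20, a block for the number in the mouse identity and likeness without MF replicate 4. The most similar pair of arrays had 138 identical values and an r of 0.996. Promoter windows came from RefSeq (GRCm38.p6) and were aligned with Biopython 1.88. Nr1i3 and Por were not analysed here.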

Additional observations from a re-analysis of the deposited data

Results flagged for a closer look

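Of 20 groups of mice examined for a single mouse far from the rest, 1 had one. C replicate 5 had Cyp2b13 at 4.66 on the log2 scale, the highest of 7 C mice, at a distance from the next that made up 0.670 of the group's range. Chance flags about 1 in 20 such groups. The same mouse was the highest of its diet for Cyp2b9 (12.00) and Cyp2b10 (8.29).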

How the results depend on the processing

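All signs of the member differences stayed under all alternatives that gave a value. Several alternatives could not change these differences. These were no minimum, robust and trended variances, only the 2 diets compared and the mean of probe sets. The blocks likewise could not change differences among C, MF and INT. With the minimum on all arrays Cyp2b10 and Cyp2b13 dropped out, which left fewer results. None of 45 results changed direction, side of the threshold or, for counts, by more than 1.5 times without a minimum, with cyclic loess, median centring, robust and trended variances, only the 2 diets compared, the array set as a block or the mean of probe sets, nor did 33 of 33 with the minimum on all arrays. With the replicate block none of 45 changed either: Cyp2b10 between CR and C was 2.17 (adjusted p = 0.0051, limma). Correlations of same-numbered mice ran from -0.25 to 0.30, not all over 0.1, so the numbers were not used as pairs; for 11 of 27 mice the best correlate outside their diet had their own number, a hint from the data. The number in the mouse identity, added after seeing the data, gave -0.27 to 0.26 over 39 pairs and 2 of 27, and as a block changed none of 45 results. Array weights called 3 genes between INT and MF in place of 0, and 4 cluster neighbours between CR and MF in place of 2.

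Within replicates 1 to 4, 1226 genes were called for CR against C and 1038 against INT, with 2, 1 and 1 genes of electron and heme supply against C, MF and INT, 9 CAR and PXR targets and 5 growth hormone genes against INT, and 1 gene between MF and C. Within replicates 5 to 7, with 2 CR mice, Cyp2b10 between CR and C was 1.28 (adjusted p = 0.567), Cyp2b13 between CR and INT 7.51, and 497, 331 and 347 genes were called against C, MF and INT. There the cluster neighbours, the CAR and PXR partners and the growth hormone genes had 1 call in each comparison, electron and heme supply 2, 1 and 1, CAR and PXR targets 5, 4 and 6, male-biased genes 13, 13 and 16, and female-biased genes 7 and 4 against C and MF. Fewer mice entered these fits.

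With each mouse left out in turn, genes called between INT and MF ran from 0 to 29, with 29 without MF replicate 6, 2 without C replicate 5 and 1 without C replicate 7, and the calls in electron and heme supply from 2 to 5, 2 to 4 and 1 to 3 against C, MF and INT. Cyp2b10 between CR and C ran from 1.97 to 2.57 (adjusted p at most 0.00611), and Cyp2b9 between INT and MF, without a test, from -3.51 to -2.56.

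Of the 5 genes nearest to each member over 27 mice, those that stayed under Spearman's rho, over 21 mice outside CR and over deviations from diet means were 3, 1 and 1 for Cyp2b9, 2, 0 and 0 for Cyp2b10 and 1, 0 and 0 for Cyp2b13. For Cyp2b13 over deviations, 1 of 5 stayed without MF replicate 4. With values under 20 set to 20, Cyp2b13 differed by 5.43 between CR and C and by 5.48 between CR and INT. Low signal limits Cyp2b13 outside CR and Cyp2b10 in INT.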
